A study of Danio rerio with 10 samples.

Results

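Microglia taken from zebrafish brains after drug-driven loss of neurons were set against the other cells of the brain. The activated microglia are GFP-positive cells of 3-month-old fish of the line Neuro:NTR-mCherry x mpeg1:GFP that had received MTZ (metronidazole) for 48 h (samples 8 and 4) or 24 h (samples 3 and 7). The other brain cells are the GFP-negative population of brains of the same line and age (samples 2, 6 and 10), and the labels do not name the treatment of their fish. The comparison takes 7 of the 10 libraries of the series, grouped by their labels. It leaves out the 3 labelled as control microglia, since the column of control sample 9 is identical to an activated one. NTR is a nitroreductase that turns MTZ into a poison in the cells that make it. GFP is driven by the promoter of the macrophage gene mpeg1, so the sort takes cells in which that promoter is active. These include macrophages of any origin in the dissociated brain, and other cell types are not excluded. Brains were trypsinized on ice and enriched on Percoll before the sort. Every group carries both transgenes. The labels give only "Neuro" for the driver of NTR. Whether each sample was a separate fish or pool is not stated, so p-values measure the spread between samples alone. Activated microglia differ from the other brain cells in cell type, and may differ in treatment too, so the part of each cannot be told apart here.

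Microglia are the resident macrophages of the central nervous system. They descend from myeloid progenitors under the transcription factors Pu.1 and Irf8, depend on the Csf1 receptor, engulf dying neurons and digest them in lysosomes, and present antigen and release cytokines when stirred. Dividing cells first load and fire the Mcm helicase to copy their DNA, and later switch on the spindle and cytokinesis genes of mitosis. Roles of genes named below are those known from mammals unless zebrafish is named.

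Values are the authors' normalized signal per gene, in which a constant of 0.223 stands for 0 reads. The 4 activated libraries held 8600052 to 12815571 reads and the 3 brain libraries 6185540 to 10049275. A value of 1 read lay between 0.072 and 0.1276 in these 7 libraries. The deposited column of 24 h sample 3 is identical in all 21756 genes to that of a sample labelled control microglia, sample 9. Over 7299 genes the authors' deposited table of 24 h minus 48 h fold changes lay a median of 0.001 (log2) from the fold changes of group means with sample 3 as 24 h, and 0.109 without it. That match shows only that the authors used the column as 24 h, not which library it came from. A control library may thus sit among the activated ones, which cannot be settled here. The column was kept as 24 h sample 3, and counts without it are given. The 48 h sample 8 also stood apart, with the largest column sum (1444667, against 998447 to 1071065 in the other activated libraries) and the fewest genes with a read, 18782. Mitochondrial genes with a symbol that starts with mt- took 1.7% of reads in sample 8. They took 2.87% to 5.58% in the other activated libraries and 5.19% to 11.02% in the brain libraries. Genes without such a symbol were not counted, so these shares may fall short of the whole mitochondrial genome. AC024175.4, left out in this way, took 2.55% and 3.06% in 24 h samples 3 and 7 and 6.91% in brain sample 6.

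The comparison asked which genes of microglia stand out from the rest of the brain after neuron loss. In limma with Benjamini-Hochberg adjustment over 21458 genes, 4980 genes (23.2%) were higher and 5997 (27.9%) lower in activated microglia at an adjusted p under 0.05. The counts of called genes in the lists below are to be read against these shares. Fold changes are differences of log2(value + 1), activated minus brain, with their standard error (SE), and this scale understates the change of genes with low values. The median difference of all genes was -0.05. Of the called genes 45.4% were higher, and 32.4% when every library was scaled to the same sum, which moved the median of all genes to -0.42, while quantile normalization moved it to 0.12. Without 24 h sample 3 the counts were 4396 and 5483, and without 48 h sample 8 they were 5436 and 6020. A gene was said to stand out when it was called higher with a difference of at least 3 and every activated library lay above every brain library. This held for 804 genes (3.75%), and 787 of them also stood out without sample 3. Every activated library lay above every brain library for 5235 genes (24.4%) and below every brain library for 6334 (29.5%).

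The 804 genes together took 34.8% and 32.4% of the reads at 48 h and 27.7% and 28.8% at 24 h, against 2%, 1.31% and 2.27% in the brain libraries. They were chosen as higher in these same libraries, so the direction of this gap follows from the choice. Of them, 370 differed by at least 4, 84 by at least 6 and 15 by at least 8. A total of 803 were called at both time points when each was set against the same brain libraries. The choice already required every library of both times to lie above brain, so this count is no separate support. The genes just inside the limit were cyth1b at 3.003 and suclg1 at 3.005, and those just outside were si:ch73-236c18.6 at 2.999 and p2ry11 at 2.998.

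**Figure D1:**
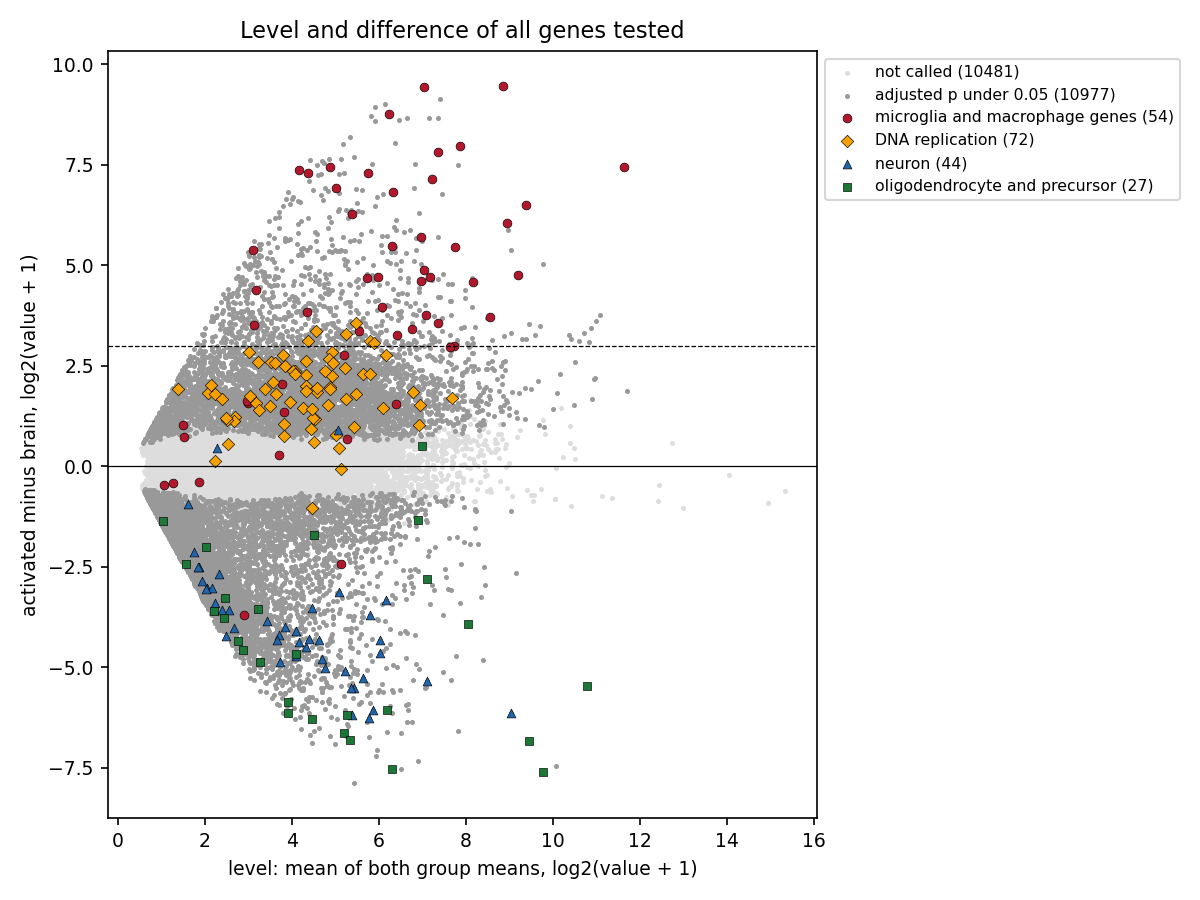
Each point is 1 of the 21458 genes tested, with its level (mean of both group means, log2(value + 1)) on the x axis and the difference, activated minus brain, on the y axis. Dark grey points have an adjusted p under 0.05, the dashed line marks a difference of 3, and larger symbols mark 4 gene lists: microglia genes reach 9.47, while 41 of 44 neuron genes and 26 of 27 oligodendrocyte genes were called lower.

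The gene with the largest difference was lgals3bpb, which encodes a secreted galectin-3-binding protein. It had values of 19138 and 14754 at 48 h (samples 8 and 4) and 9725 and 8638 at 24 h (samples 3 and 7), against 13.9, 26.5 and 12.2 in brain samples 2, 6 and 10. The difference was 9.47 ± 0.41 (limma, Benjamini-Hochberg adjusted p = 8.02e-07), and its relatives LGALS3BP (3 of 3) and lgals3bpa followed at 8.19 ± 0.34 and 8.02 ± 0.35. In all 3 genes both 48 h libraries lay above both 24 h libraries. Near-identical copies may share reads in this family and in the MFAP4, si:dkey-119g10, ms4a17a, SIGLEC and hsp70 genes below, so the split between their members is uncertain.

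The gene mpeg1.1, which encodes the pore-forming protein perforin-2 and whose promoter drives the sorted GFP, checks the sort. It stood at 6047 and 4454 at 48 h and 2103 and 2469 at 24 h, against 4.05, 5.74 and 2.67 in the brain libraries. No library overlapped with the other group, and the difference was 9.43 ± 0.41 (limma, Benjamini-Hochberg adjusted p = 8.02e-07). Cells were sorted by GFP from this gene's promoter, so the direction of its difference follows from the sort. apoeb, an apolipoprotein that carries lipid out of and between cells, stood at 101048 and 55583 at 48 h and 21274 and 26111 at 24 h, against 646, 163 and 130 in the brain libraries. It was the gene with the most reads in both 48 h libraries, at 7.02% and 5.21%, and differed by 7.45 ± 0.74. mcm2, of the helicase that opens DNA for copying, had values of 116 and 178 at 48 h and 199 and 172 at 24 h, against 20.8, 5.96 and 43.7 in the brain libraries. Its difference was 3.12 ± 0.54 (limma, Benjamini-Hochberg adjusted p = 0.00084), and again the groups did not overlap.

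The other genes of the 15 largest differences fell into a few kinds. tgm2l, a transglutaminase that cross-links proteins, differed by 9.00 ± 0.38. The complement C1q chains c1qb and c1qc, which tag debris for uptake, differed by 8.94 ± 0.54 and 8.72 ± 0.55. havcr1, a receptor for phosphatidylserine on dying cells, differed by 8.75 ± 0.54, the mannose receptor mrc1b by 8.58 ± 0.42 and the progranulin gene grna, whose product serves the lysosome, by 8.66 ± 0.34. mfap4 and MFAP4 (4 of 14), of a fibrinogen-domain family used as a macrophage marker in zebrafish, differed by 8.66 ± 0.61 and 8.61 ± 0.68. Loci known only by clone names made up 3 of the 15, si:dkey-6n3.3 at 9.14 ± 0.66, si:dkey-119g10.4 at 8.66 ± 0.66 and si:dkey-119g10.5 at 8.04 ± 0.57.

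These genes did not share a pattern over time. si:dkey-6n3.3 had 4391 and 1436 at 48 h and 7153 and 5723 at 24 h, against 2.65, 17.9 and 4.18 in brain. MFAP4 (4 of 14) had 7857 and 1135 at 48 h and 837 and 1237 at 24 h, against 5.33, 3.04 and 2.46 in brain. The first was highest at 24 h, and the second was far higher in sample 8 than in any other library. The gene grna had 2491 and 5253 at 48 h and 2902 and 3083 at 24 h, against 6.35, 5.42 and 10.4 in brain.

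**Figure D2:**
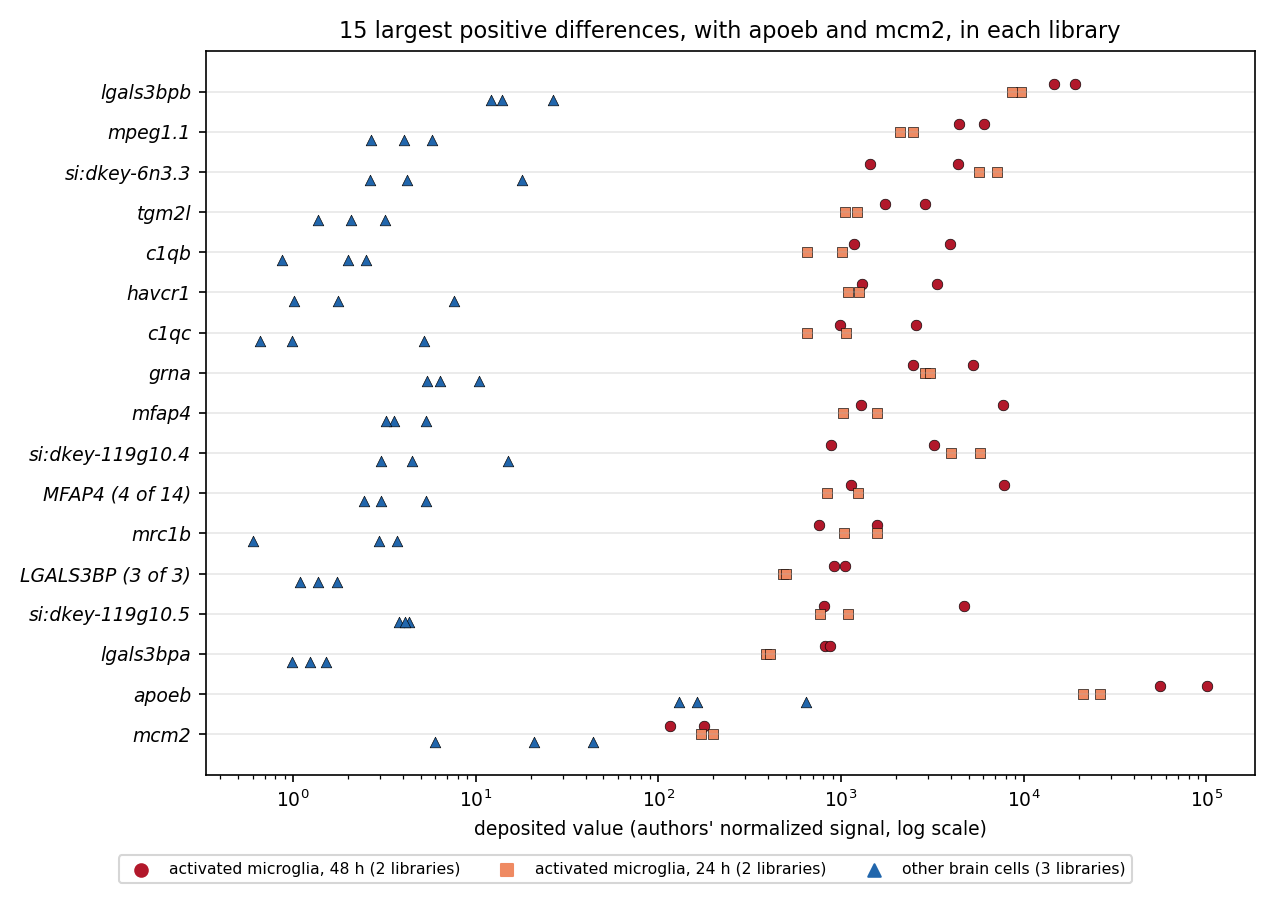
Values of the 15 genes with the largest positive differences, and of apoeb and mcm2, in each of the 7 libraries, on a logarithmic x axis in units of the authors' normalized signal. Circles are 48 h, squares 24 h and triangles brain libraries: lgals3bpb lies between 8638 and 19138 in activated and between 12.2 and 26.5 in brain libraries, and mcm2 between 116 and 199 against 5.96 to 43.7.

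Several of the leading genes belong to families of close copies, looked at after their values were seen. Of 14 tested genes with an MFAP4 symbol, 11 were higher and 1 lower, from -1.87 for MFAP4 (13 of 14) to 8.66 for mfap4. In 13 of the 14, sample 8, the library with the largest column sum, was the highest of the activated libraries. It was also the highest for 405 of the 804 genes that stand out. The same share over all genes tested was not computed, so neither count sets these genes apart. Of 13 ms4a17a genes, membrane proteins of the MS4A family, 11 were higher and 10 stood out, led by ms4a17a.10 at 7.28. Of 51 genes with a SIGLEC symbol, sialic acid-binding receptors of leukocytes, 49 were higher and 18 stood out, with a median of 2.65 and a maximum of 5.62 for SIGLEC1 (9 of 51). These counts are to be read against 23.2% of all genes higher.

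A few genes had reads in the activated libraries and none in any brain library. This was so for 8 of the 804. tlr21, a Toll-like receptor of fish and birds, had 44.9 and 44.6 at 48 h and 38.6 and 22.5 at 24 h and was at least 122-fold higher than a brain level of 3 reads per library would be. The Toll-like receptor tlr8a was at least 60.2-fold higher and the ATP-gated channel p2rx3a at least 51.5-fold higher by the same floor.

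The list of microglia and macrophage genes was set beside the label of the sorted cells. It was chosen with earlier results of these data known, so it is not an independent check. Of 54 members tested, 45 were higher, 2 lower and 7 not called, the median difference was 4.49, and the counts were 45 and 2 also without sample 3. csf1ra, a receptor for Csf1, had 199 and 462 at 48 h and 506 and 352 at 24 h, against 2.14, 1.2 and 2.74 in brain. The amino acid transporter slc7a7, needed by zebrafish microglia, differed by 7.44 ± 0.27, the actin bundler lcp1 by 6.04 ± 0.61 and the nucleotide receptor p2ry12 by 5.39 ± 0.30. Shares of the activated level were taken only over the 48 members with an activated mean of at least 5, which leaves out members low in microglia. The median of these 48 stood in brain samples 2, 6 and 10 at 3.3%, 3.03% and 4.17% of its mean in activated libraries.

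The 2 microglia genes that were lower bear names familiar from mammals. aif1l, a relative of the mammalian microglia marker Aif1, had 3.1 and 10.9 at 48 h and 35.4 and 29.1 at 24 h, against 82.9, 121 and 51.9 in brain (difference -2.42 ± 0.69). sall1a, a relative of Sall1, which marks microglia among macrophages in mice, had 0.724 and 0.223 at 48 h and 1.7 and 2.21 at 24 h, against 42.7, 14.9 and 26.8 in brain (difference -3.70 ± 0.46). Both were below every brain library. aif1l was not called without brain sample 2 or brain sample 6 (highest adjusted p = 0.0628, limma, Benjamini-Hochberg).

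Among 58 macrophage transcription factors 33 were higher, 8 lower and 17 not called, with a median of 1.53 (31 and 8 without sample 3). irf8, which directs zebrafish macrophage and microglia development, had 584 and 373 at 48 h and 284 and 289 at 24 h, against 5.07, 4.12 and 2.38 in brain. It differed by 6.28 ± 0.34 (limma, Benjamini-Hochberg adjusted p = 1.97e-06). The Pu.1 genes spi1b and spi1a differed by 5.47 ± 0.26 and 4.87 ± 0.27, and the myeloid factors cebpa and cebpb by 5.37 ± 0.35 and 4.88 ± 0.52.

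Next came factors of macrophage maturation and signalling. irf5, which drives inflammatory cytokine genes, differed by 5.26 ± 0.33 and mafba, a factor of macrophage differentiation, by 4.61 ± 0.44. tfec, of the Mitf family, differed by 3.99 ± 0.24 with values within 95.2 to 119 in the 4 activated libraries. The retinoid X receptor rxraa, a partner of lipid-sensing receptors, differed by 3.88 ± 0.30, stat6, which acts below interleukin-4 receptors, by 3.18 ± 0.28, and the immediate early gene egr1 by 3.47 ± 0.30. Besides sall1a, the lower factors included the inhibitor of differentiation id2b at -3.29 ± 0.33, the blood progenitor factor tal1 at -3.17 ± 0.46 and cebpd at -1.82 ± 0.45. tal1 had 0.724 and 1.37 at 48 h and 3.48 and 4.55 at 24 h, against 24.1, 22.3 and 38.5 in brain.

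Genes of engulfment were split between the groups. Of 46 phagocytosis receptors and bridging proteins, 19 were higher, 16 lower and 11 not called, with a median of 0.29 (18 and 15 without sample 3, and 17 and 18 when every library was scaled to the same sum). The receptors on the higher side bind debris, microbes or phosphatidylserine. The scavenger receptor marco had 301 and 251 at 48 h and 152 and 239 at 24 h, against 0.351, 0.548 and 0.295 in brain. All 3 brain libraries lay at or below 3 reads of marco, and its difference was 7.37 ± 0.30. havcr2, a phosphatidylserine and galectin-9 receptor, differed by 7.28 ± 0.36, the scavenger receptor stab1 by 5.60 ± 0.34 and the scavenger receptor scarf1 by 4.22 ± 0.37. The complement receptor 3 chains itgb2 and itgam differed by 4.71 ± 0.30 and 3.51 ± 0.49. The receptor kinase mertka, which binds phosphatidylserine through bridging proteins, differed by 2.19 ± 0.53, with 16.1 and 50.9 at 48 h and 33.3 and 40.7 at 24 h, against 10.6, 2.17 and 9.87 in brain.

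Other phosphatidylserine receptors and their adaptors were lower in the microglia than in the rest of the brain. timd4, a phosphatidylserine receptor of mouse macrophages, had 7.24 and 14.3 at 48 h and 10.8 and 8.88 at 24 h, against 208, 240 and 112 in brain, and differed by -4.02 ± 0.34 (limma, Benjamini-Hochberg adjusted p = 1.3e-05). The Bai1 receptor genes adgrb1a and adgrb1b differed by -4.10 ± 0.40 and -4.17 ± 0.50, and the bridging protein genes mfge8a and gas6 by -4.53 ± 0.38 and -1.96 ± 0.47. gulp1a, an engulfment adaptor, had 0.223 and 1.48 at 48 h and 0.301 and 1.04 at 24 h, against 112, 114 and 50 in brain, the lowest of the list at -5.69 ± 0.42.

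Within the Elmo and Dock module, which turns receptor signals into Rac-driven engulfment, the copies parted. elmo1 had 933 and 1038 at 48 h and 920 and 823 at 24 h, against 189, 229 and 261 in brain, and differed by 2.04 ± 0.28. elmo2 had 0.974 and 0.68 at 48 h and 1.31 and 1.51 at 24 h, against 40.6, 19 and 85.3 in brain, and differed by -4.31 ± 0.47. The groups did not overlap for either gene. dock1, a binding partner of Elmo, was lower as well, by -3.18 ± 0.36.

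**Figure D3:**
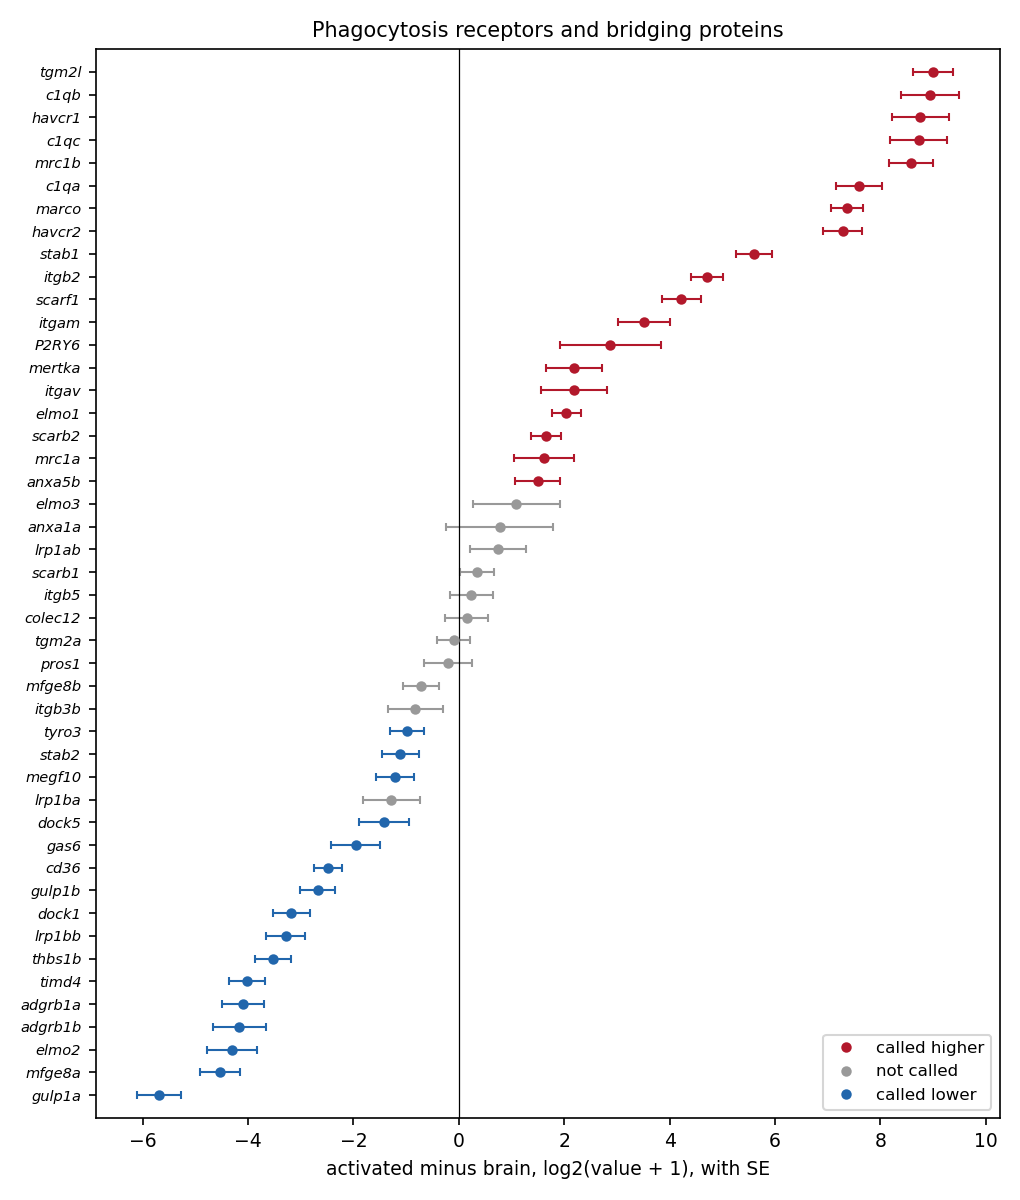
Difference, activated minus brain on the log2(value + 1) scale, of the 46 tested phagocytosis receptors and bridging proteins, with its standard error. Genes called higher, called lower and not called differ in colour: tgm2l at 9.00 and gulp1a at -5.69 mark the ends, with 19 genes called higher and 16 called lower.

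Lipid, lysosome and proton pump genes were described together, since engulfed material passes through them. Of 32 lipid transport and storage genes 11 were higher and 7 lower, with a median of 0.31, and 10 and 12 with every library scaled to the same sum. The 11 and 7 are 34.4% and 21.9%, against 23.2% higher and 27.9% lower among all genes tested. Beside apoeb, the fatty acid-binding protein fabp11a and the apolipoprotein apoc1l led the list at 7.52 ± 0.66 and 7.49 ± 0.60. fabp11a had 4834 and 655 at 48 h and 826 and 2191 at 24 h, against 8.65, 12 and 3.82 in brain. The radial glia fatty acid-binding protein fabp7a and the muscle and heart form fabp3 were lower, by -4.83 ± 0.64 and -2.55 ± 0.47.

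Of 62 lysosomal hydrolase and membrane genes 45 were higher, 6 lower and 11 not called, with a median of 2.28 (43 and 6 without sample 3). After grna, the cathepsins ctsc and ctssb.2 differed by 6.31 ± 0.24 and 6.19 ± 0.51. ctsc, a protease that activates other proteases, had 1083 and 1039 at 48 h and 1192 and 1013 at 24 h, against 11.8, 14.5 and 11.7 in brain, a narrow spread in both groups. The transmembrane gene laptm4b was lower, by -2.90 ± 0.33.

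Of 26 subunits of the proton pump, which acidifies lysosomes, 18 were higher, 6 lower and 2 not called, and the calls separated copies of the same subunit. tcirg1b, an a subunit of the pump, had 455 and 439 at 48 h and 412 and 467 at 24 h, against 25.1, 15.7 and 25.9 in brain, and differed by 4.29 ± 0.26. atp6v0e1 and the accessory subunit atp6ap1b differed by 3.53 ± 0.40 and 3.25 ± 0.29. On the other side, the proteolipid atp6v0cb had 13.6 and 3.65 at 48 h and 4.41 and 8.06 at 24 h, against 227, 305 and 287 in brain. It differed by -5.16 ± 0.40, and atp6v1b2, the B subunit of the catalytic head used in the mammalian brain, by -4.68 ± 0.36.

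Antigen presentation genes lay almost wholly on the microglia side. Of 15 class II genes 13 were higher, 10 stood out and 1 was lower, with a median of 3.84. cd74a, the invariant chain, had 7065 and 6450 at 48 h and 6701 and 5315 at 24 h, against 89.8, 68.9 and 52.5 in brain, and differed by 6.51 ± 0.32. ifi30, a lysosomal thiol reductase, differed by 5.86 ± 0.48. The exception was ctssa, a cathepsin S gene, at -2.31 ± 0.32 with a highest activated value of 1.28. Of 25 immunoproteasome and class I loading genes, 22 were higher and 0 lower, with a median of 2.14 (20 and 0 without sample 3), led by the proteasome activator psme2 at 3.89 ± 0.44, psmb11 at 3.10 ± 0.46 and the disulphide isomerase pdia3 at 3.02 ± 0.26.

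Of 19 complement genes 6 were higher and 6 lower (31.6% each way, against 23.2% higher and 27.9% lower among all genes tested), with a median of -0.36. The 3 chains of C1q stood out, c1qa at 7.60 ± 0.44 beside c1qb and c1qc. c1qb had 3943 and 1182 at 48 h and 648 and 1017 at 24 h, against 2.01, 2.5 and 0.871 in brain. The lower genes included those of the terminal component C7, with C7 (2 of 2) at -3.88 ± 0.50 and c7a at -1.86 ± 0.26, the second without a read in any activated library.

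Of 38 Toll-like receptor and sensing genes 34 were higher, 0 lower and 4 not called, with a median of 2.46 (33 and 0 without sample 3). caspb, an inflammatory caspase of fish, differed by 7.29 ± 0.50, tlr1 by 6.64 ± 0.26 and the inflammasome adaptor pycard by 5.77 ± 0.70. pycard had 1479 and 291 at 48 h and 187 and 196 at 24 h, against 10.6, 5.74 and 2.53 in brain, while tlr1 lay within 139 to 202 in all 4 activated libraries.

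Of 44 inflammatory mediators 24 were higher, 5 lower and 15 not called, with a median of 2.07. il1b, the gene of interleukin-1 beta, had 155 and 254 at 48 h and 312 and 366 at 24 h, against 4.82, 4.66 and 2.82 in brain, and differed by 5.70 ± 0.34. tnfb, a tumour necrosis factor gene, differed by 5.50 ± 0.39 and lta4h, which makes leukotriene B4, by 6.76 ± 0.29. The cytokine gene il11b was lower, by -1.83 ± 0.45, and the count of lower mediators was 3 without sample 3, 48 h sample 4, brain sample 2 or brain sample 6, and 8 with equal library sums.

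Of 47 chemokines and chemokine receptors 24 were higher and 14 lower, with a median of 1.25 (23 and 15 without sample 3). The chemokine ccl34b.1 had 8002 and 1810 at 48 h and 1949 and 1352 at 24 h, against 8.52, 22 and 5.12 in brain, and differed by 7.82 ± 0.63. The receptors cmklr1 and ccr12a differed by 6.89 ± 0.30 and 6.87 ± 0.54. Lower genes were led by chemokines that brain tissue makes, cxcl12a at -4.80 ± 0.44 and cxcl14 at -4.75 ± 0.47.

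Of 43 interferon response genes 22 were higher and 2 lower, with a median of 1.11, 22 and 2 also without sample 3, and 5 lower with equal library sums. The guanylate-binding protein gbp1 differed by 4.67 ± 0.36, the Mx protein mxc by 4.48 ± 0.36 and PARP14 by 3.56 ± 0.47. rsad2, the antiviral enzyme viperin, went the other way, with 3.23 and 2.51 at 48 h and 4.1 and 15 at 24 h, against 98.8, 109 and 35.2 in brain (difference -3.64 ± 0.57).

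The oxidant-making enzyme was on the microglia side. Of 10 NADPH oxidase genes 7 were higher and 0 lower. The cytosolic subunit ncf1 differed by 5.16 ± 0.48 and the membrane subunit cybb by 5.10 ± 0.42. cybb had 184 and 504 at 48 h and 609 and 568 at 24 h, against 9.03, 13.5 and 12 in brain, with sample 8 far below the other activated libraries yet above every brain library.

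Of 23 heme and iron genes 8 were higher and 5 lower, with a median of 0.05. The 8 and 5 are 34.8% and 21.7%, against 23.2% higher and 27.9% lower among all genes tested. The heme oxygenase hmox1a had 262 and 94.3 at 48 h and 76.8 and 191 at 24 h, against 6.86, 3.8 and 4.4 in brain, and differed by 4.57 ± 0.44. The ferroxidase gene cp was lower, by -3.19 ± 0.43. Of 35 Nrf2 antioxidant genes 17 were higher and 4 lower, with a median of 0.92 (16 and 4 without sample 3). The regulators nfe2l2a and keap1a themselves differed by 3.75 ± 0.32 and 3.66 ± 0.39, while nqo1 and the glutathione peroxidase gpx4a were lower by -3.21 ± 0.42 and -3.11 ± 0.38.

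Genes that copy DNA were higher in activated microglia as a broad group. Of 72 replication genes 58 were higher, 1 lower and 13 not called, with a median of 1.86, and 6 stood out. The count was 52 and 1 without sample 3 and 62 and 1 without sample 8, and ran from 46 to 65 higher over all settings tried. Of the 6 subunits of the Mcm helicase, mcm4 differed by 3.55 ± 0.39, mcm5 by 3.28 ± 0.36, mcm2 by 3.12 ± 0.54 and mcm3 by 3.08 ± 0.30. mcm6 differed by 2.77 ± 0.32 and mcm7 by 1.96 ± 0.64. mcm4 had 206 and 121 at 48 h and 161 and 128 at 24 h, against 9.8, 7.15 and 23.6 in brain. For mcm7 the values were 46.1 and 62.1 at 48 h and 70.4 and 54.1 at 24 h, against 22.7, 2.93 and 35.1 in brain, and its call was lost without sample 3 (adjusted p = 0.058, limma, Benjamini-Hochberg) or 48 h sample 4, and also after quantile normalization or with every library scaled to the same sum.

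Other parts of the replication machinery were higher as well. The polymerase delta subunit pold1 differed by 3.37 ± 0.46, the clamp loader subunit rfc4 by 3.11 ± 0.44 and the sliding clamp pcna by 1.71 ± 0.29. pcna had 368 and 298 at 48 h and 518 and 329 at 24 h, against 128, 118 and 94.2 in brain. Ribonucleotide reductase rrm1 differed by 2.68 ± 0.35, thymidylate synthase tyms by 2.50 ± 0.42 and the maintenance methylation factor uhrf1 by 2.57 ± 0.32. The chromatin assembly factor subunits chaf1b and chaf1a differed by 2.61 ± 0.37 and 2.37 ± 0.38, and the loading factor cdc6 by 2.11 ± 0.31. Its partner cdt1 (1.22 ± 0.48, limma adjusted p = 0.0573) and the Cdt1 inhibitor gmnn (0.75 ± 0.45, limma adjusted p = 0.191) did not pass. However, cdt1 was called without 48 h sample 8 and with the times as separate groups. It was also called after quantile normalization, with array weights and with control microglia samples 1 and 5 in the fit. gmnn was not called under any setting. The single lower gene was rrm2b, the reductase subunit tied to DNA repair in mammals, at -1.03 ± 0.30, and it was not called without brain sample 2 or brain sample 6.

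Mitosis genes did not follow the replication genes at 24 h. Of 66 mitosis and cytokinesis genes 44 were higher and 0 lower at 48 h against brain, where 20% of all genes were higher and 24.5% lower. At 24 h against the same brain libraries 7 were higher and 3 lower, where 18.7% of all genes were higher and 22.7% lower. The median difference from brain was 1.71 at 48 h and 0.21 at 24 h. Replication genes had 57 of 72 higher at 48 h and 47 of 72 higher at 24 h. Relative to the mean of the brain libraries, the median mitosis gene stood at 1.80 and 1.65 in 48 h samples 8 and 4, and at 0.49 and -0.19 in 24 h samples 3 and 7. The summed value of the mitosis genes was 3088 and 2475 at 48 h and 1144 and 810.4 at 24 h, against 754.3, 695.6 and 780.7 in brain.

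The 48 h minus 24 h difference of the mitosis genes was positive for 65 of 66, with a median of 1.58, against a median of -0.04 over all genes. For 56 of 66 (84.8%) both 48 h libraries lay above both 24 h libraries, which held for 14.4% of all genes. The median stayed positive with each activated library left out, which leaves a single library at that time. Without 24 h sample 3, the library of doubtful label, it was 1.87, and without 24 h sample 7 it was 1.20. Without 48 h samples 8 or 4 it was 1.32 and 1.65. Sample 7, alone at 24 h without sample 3, was the lower of the pair (-0.19 against 0.49 relative to brain), so the rise to 1.87 follows from that. No single gene passed the adjusted test of 48 h against 24 h, in which 0 of 21458 genes were called by limma (768 at an unadjusted p under 0.05) and 0 by limma-voom (884). Of the mitosis genes 43 of 66 were at an unadjusted p under 0.05. Over the replication genes the median difference was 0.19, and it ran from -0.08 without 48 h sample 8 to 0.55 without 48 h sample 4.

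The widely used markers of dividing cells mki67, cdk1 and top2a were looked at after their values were seen. mki67 had 131 and 212 at 48 h and 69.7 and 43.3 at 24 h, against 65.7, 39.6 and 60.8 in brain. cdk1, the kinase that drives entry into mitosis, had 148 and 108 at 48 h and 38.9 and 24.7 at 24 h, against 35.6, 29.6 and 19.5 in brain. top2a, which untangles chromosomes, had 67.6 and 132 at 48 h and 38.8 and 18.6 at 24 h, against 26, 23.7 and 52.9 in brain. In all 3 the 48 h libraries lay above every other library and the 24 h libraries overlapped with brain. Pooled over both times, none of the 3 was called against brain (0.81 ± 0.49, 1.17 ± 0.57 and 0.64 ± 0.58, with limma adjusted p = 0.197, 0.114 and 0.383).

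Pooling of both times left 18 of the 66 mitosis genes higher and 0 lower, with a median of 0.98. That is 27.3% higher, against 23.2% of all genes tested. The pooled count was 9 with every library scaled to the same sum, 26 after quantile normalization, 11 without 48 h sample 4, 9 without brain sample 2 and 10 without brain sample 6. Among those called, the phosphatase cdc25b, which releases Cdk1, had 444 and 197 at 48 h and 163 and 170 at 24 h, against 19.1, 16.7 and 20.1 in brain, and differed by 3.51 ± 0.37. The condensin subunit ncapg2 differed by 2.38 ± 0.53 and the spindle motor kif15 by 2.19 ± 0.45.

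**Figure D4:**
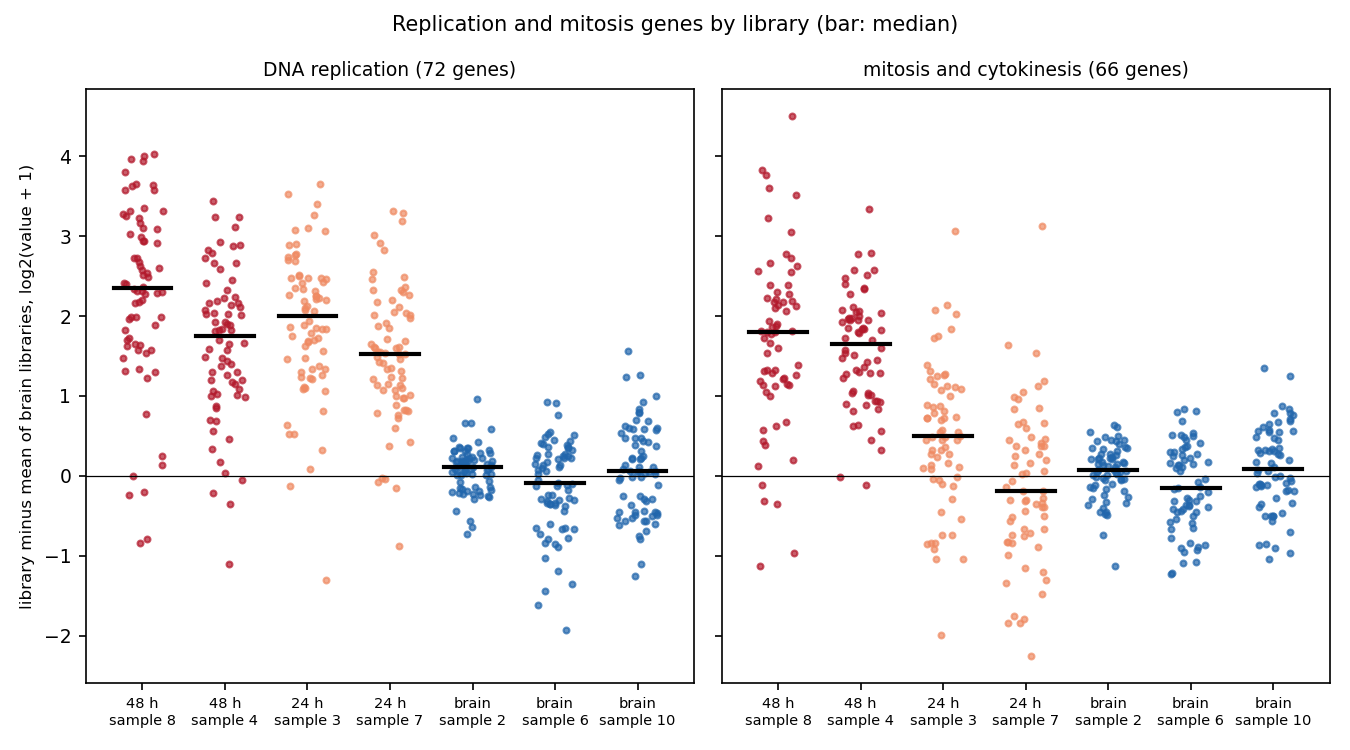
Each point is 1 gene in 1 library, as its log2(value + 1) minus the mean of that gene over the 3 brain libraries, for 72 replication genes (left) and 66 mitosis genes (right), with a bar at the median. Replication genes lie above the brain mean in all 4 activated libraries (medians 1.53 to 2.35), while the mitosis medians are 1.80 and 1.65 in the 48 h and 0.49 and -0.19 in the 24 h libraries.

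Genes of tRNA charging and protein folding were higher too. All 19 cytosolic aminoacyl-tRNA synthetases tested, which charge tRNAs with amino acids, were higher, with a median of 2.10 (18 without sample 3), led by rars at 3.62 ± 0.38, iars at 2.89 ± 0.62 and farsa at 2.54 ± 0.35. Of 42 endoplasmic reticulum folding genes 37 were higher and 0 lower, with a median of 1.95 (34 and 0 without sample 3). The chaperone hspa5 had 823 and 1014 at 48 h and 1200 and 1527 at 24 h, against 82.7, 29.9 and 142 in brain, and differed by 3.95 ± 0.49. hsp90b1, its partner, differed by 3.68 ± 0.30.

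Of 36 cytosolic chaperones 24 were higher and 3 lower, with a median of 1.64 (22 and 2 without sample 3). hsp70.3, hsp70.2 and hsp70.1 differed by 4.77 ± 0.95, 4.66 ± 0.98 and 4.63 ± 0.96. hsp70.3 had 648 and 951 at 48 h and 893 and 1335 at 24 h, against 123, 3.25 and 72.5 in brain, a wide spread among the brain libraries. hsc70 and hspb1 were lower, by -2.16 ± 0.47 and -1.94 ± 0.32. The gene under the symbol hsc70 was low in both groups, with 4 reads in all activated libraries together. Its values in brain were 7.12, 1.31 and 9.87. Of 44 proteasome subunits 32 were higher and 1 lower, with a median of 1.31 (27 and 1 without sample 3, 21 higher with equal library sums, and 20 to 37 higher over all settings). psma6l differed by 3.75 ± 0.38, psmd2 by 2.59 ± 0.64 and psmd1 by 2.50 ± 0.60, and the activator psme4a by -1.87 ± 0.26.

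Of 76 ribosomal protein genes 28 were higher and 1 lower, with a median of 0.92. This count depended on scaling, with 17 higher when every library was scaled to the same sum and 5 after quantile normalization. rpl3 differed by 2.12 ± 0.38, rps3a by 1.96 ± 0.32 and rpsa by 1.95 ± 0.41 (not called after quantile normalization), while rps8b, with 0.473 and 0.452 at 48 h and 0.611 and 1.04 at 24 h, against 18.1, 19.8 and 16.4 in brain, was lower by -3.55 ± 0.30. Of 13 protein genes of the mitochondrial genome 0 were higher and 3 lower, with a median of -0.79. The 3 are 23.1%, against 27.9% lower among all genes tested. The count of lower genes moved with the scaling, to 8 with every library scaled to the same sum and 9 after quantile normalization. Only 1 was lower without 24 h sample 3 or 7, 48 h sample 4 or brain sample 2 or 6. mt-nd3 differed by -1.46 ± 0.40 and mt-nd1 by -1.11 ± 0.41, the second not called with the times as separate groups or in those 5 fits.

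Of 39 genes of glycolysis and the pentose phosphate path 16 were higher and 10 lower, with a median of 0.71, and enolase genes lay on both sides. The hexokinase hk2 had 69.9 and 109 at 48 h and 134 and 160 at 24 h, against 4.69, 0.764 and 4.26 in brain, and differed by 4.93 ± 0.46. The enolase eno3 differed by 4.75 ± 0.53 and the pentose phosphate enzyme pgd by 4.00 ± 0.27, and the neuronal enolase eno2 and the phosphofructokinase pfklb by -4.29 ± 0.40 and -3.52 ± 0.35. Of 28 cholesterol synthesis genes 4 were higher and 4 lower, with a median of 0.01, and the counts were 2 and 3 without sample 3 and 0 and 8 with every library scaled to the same sum. The 4 and 4 are 14.3% each way, against 23.2% higher and 27.9% lower among all genes tested. The HMG-CoA reductase copies hmgcrb and hmgcra differed by 1.18 ± 0.37 and -2.09 ± 0.44, and hmgcrb was not called without 48 h sample 4, 24 h sample 7 or brain sample 6, nor after either rescaling of the libraries (equal sums or quantiles).

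Of 40 genes of the heat shock and immediate early response, 30 were higher and 2 lower, with a median of 2.38 (29 and 1 without sample 3). After hsp70.3 came ZFP36, which shortens the life of cytokine mRNAs, at 4.67 ± 0.37. Of 31 genes of apoptosis and the DNA damage response 16 were higher and 1 lower, with a median of 0.87 (13 and 1 without sample 3). pmaip1, a death-promoting Bcl2 relative, had 228 and 138 at 48 h and 104 and 200 at 24 h, against 7.24, 10.4 and 4.18 in brain, and differed by 4.35 ± 0.37. phlda3 differed by 2.68 ± 0.44, and the death gene bbc3 by -1.70 ± 0.48, a call lost without brain sample 6 (adjusted p = 0.0578, limma, Benjamini-Hochberg).

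**Figure D5:**
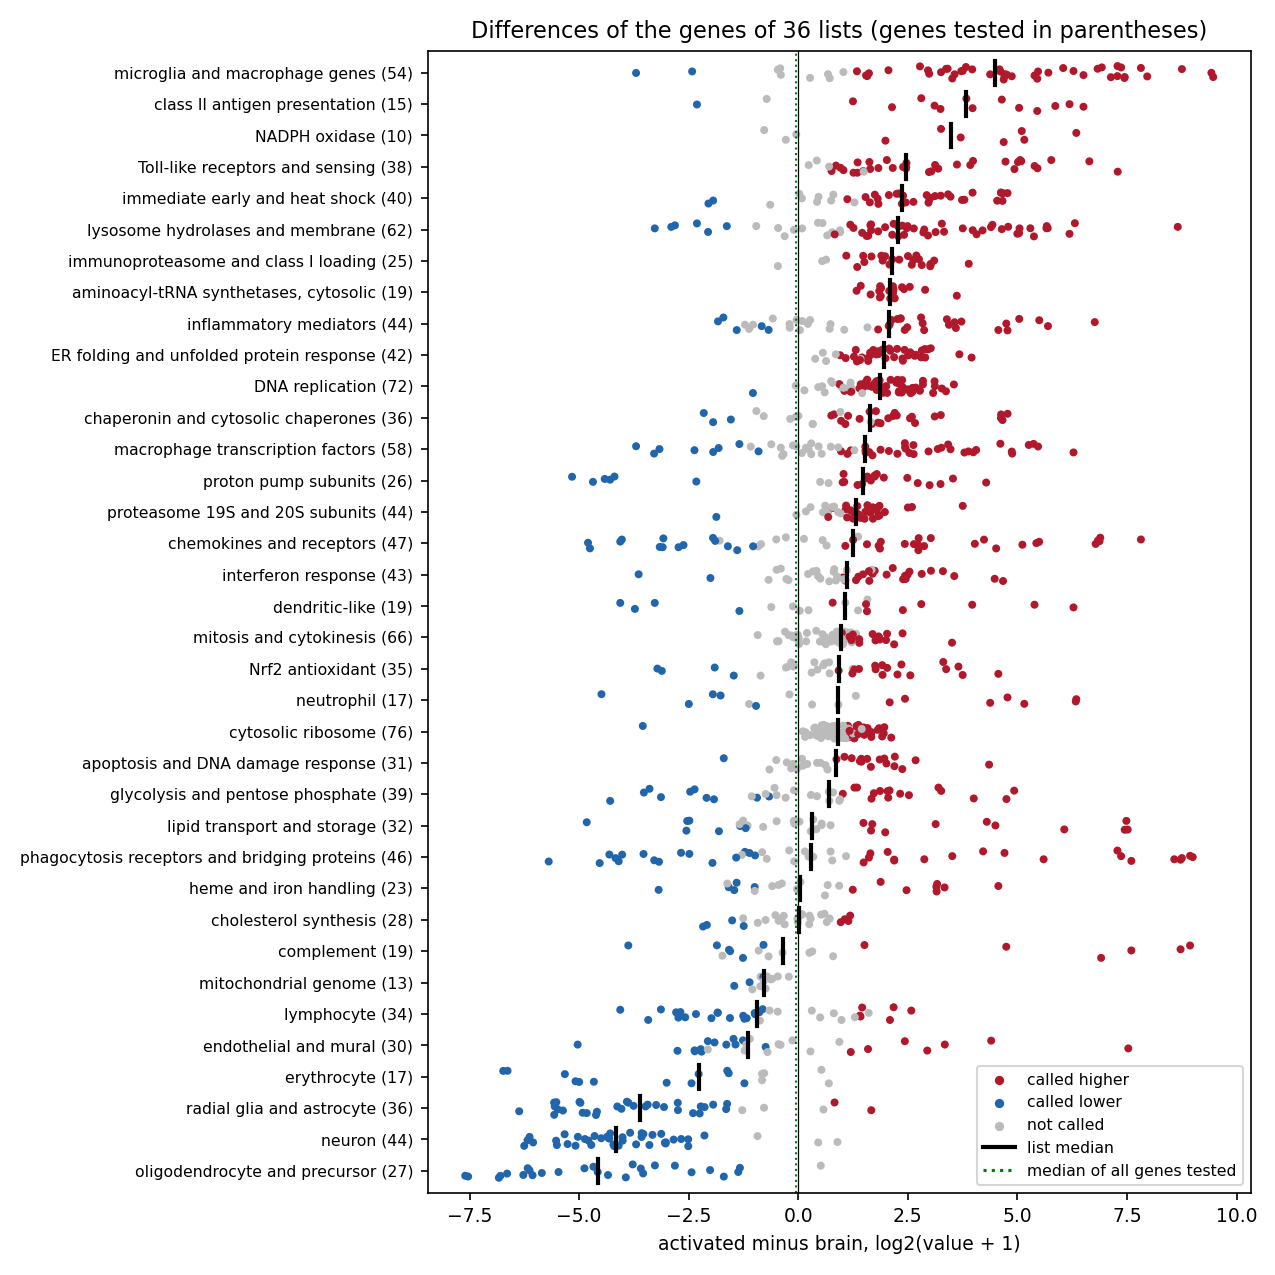
Differences, activated minus brain on the log2(value + 1) scale, of the tested genes of 36 lists ordered by their median (black bar), coloured by call, with the median of all genes (-0.05) as a dotted line. Microglia genes have the highest median, 4.49, and oligodendrocyte genes the lowest, -4.58, and phagocytosis, proton pump, glycolysis and complement genes spread to both sides.

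On the other side stood the genes of the cells that were not sorted. In bulk samples fewer cells of a type and less RNA per cell cannot be told apart. The largest negative differences were those of zgc:153981 (-7.88 ± 0.55), the myelin genes plp1b (-7.60 ± 0.43) and cldnk (-7.53 ± 0.30), si:dkey-200l5.4 (-7.53 ± 0.44), BX957297.1 (-7.46 ± 0.55), the beta globins ba1 (-7.32 ± 0.42) and ba1l (-7.20 ± 0.42), and si:ch211-286c4.6 (-7.06 ± 0.65). plp1b, a proteolipid of central myelin, had 73.6 and 38 at 48 h and 48.7 and 110 at 24 h, against 14334, 16263 and 7902 in brain. cldnk, a myelin claudin, had 4.11 and 3.54 at 48 h and 5.42 and 6.89 at 24 h, against 1102, 1357 and 847 in brain.

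Of 44 neuron genes 41 were lower and 0 higher, with a median of -4.15, and 41 were lower without sample 3 as well. The RNA-binding protein elavl3 differed by -6.25 ± 0.41, the tubulin tubb5 by -6.18 ± 0.32 and the synaptic protein snap25a by -5.33 ± 0.31. Shares of the brain level were taken only over the 42 neuron genes with a brain mean of at least 5. The median of these stood at 3.89% and 1.8% of its mean in brain libraries in 48 h samples 8 and 4. In 24 h samples 3 and 7 it stood at 2% and 2.54%. The source of these remaining reads was not tested.

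Of 27 oligodendrocyte genes 26 were lower and 0 higher, with a median of -4.58. Over the 27 genes with a brain mean of at least 5, the median stood at 0.366% and 1.33% of the brain level at 48 h. At 24 h it stood at 1.41% and 1.52%. Of 36 radial glia and astrocyte genes 31 were lower and 2 higher, with a median of -3.62. Over the 35 with a brain mean of at least 5, the median stood at 7.73% and 4.17% at 48 h and 4.12% and 4.8% at 24 h. s100b, a calcium-binding protein, differed by -6.37 ± 0.40, the matrix proteoglycan bcan by -5.57 ± 0.50 and the glial filament gfap by -2.40 ± 0.57.

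The glia list held exceptions. The glutamate transporter slc1a3a had 78.2 and 164 at 48 h and 156 and 115 at 24 h, against 45, 41.5 and 29.8 in brain, and was higher by 1.67 ± 0.32. The receptor notch1a was higher by 0.83 ± 0.31 with a call lost without sample 3 (adjusted p = 0.106), and also without 48 h sample 4, 24 h sample 7, or brain samples 2 or 6, under both rescalings, with limma-voom and with the times as separate groups. The glutamine synthetase glula had 26928 and 8438 at 48 h and 3045 and 7082 at 24 h, against 6983, 6424 and 3955 in brain. The groups overlapped, and it was not called (0.57 ± 0.73, adjusted p = 0.536, limma, Benjamini-Hochberg).

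Of 17 erythrocyte genes 12 were lower and 0 higher, with a median of -2.27. Carbonic anhydrase cahz and the alpha globin hbaa1 differed by -6.73 ± 0.35 and -6.63 ± 0.40. ba1 had 5.48 and 6.17 at 48 h and 14.4 and 10.3 at 24 h, against 853, 2427 and 1681 in brain.

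Markers of other immune and vascular cells gave mixed lists. Of 17 neutrophil genes 7 were higher, 5 of which stood out, and 5 were lower, with alox5ap, at 6.33 ± 0.33, and ncf1 among the higher ones, both used by macrophages as well. Of the 4 markers taken for the cell type, lyz had 0.473 and 0.452 at 48 h and 0.378 and 0.223 at 24 h, against 55.6, 58.6 and 7.78 in brain, and differed by -4.49 ± 0.61. The myeloperoxidase mpx and the protease npsn were lower by -1.95 ± 0.39 and -1.77 ± 0.51, npsn with a call lost without brain sample 6. The metalloprotease mmp13a was not called (-1.12 ± 0.84, adjusted p = 0.293, limma, Benjamini-Hochberg). Of 34 lymphocyte genes 6 were higher and 19 lower, with a median of -0.94 (5 and 16 without sample 3, 12 lower without brain sample 2, and 10 and 11 after quantile normalization). The 6 and 19 are 17.6% and 55.9%, against 23.2% higher and 27.9% lower among all genes tested. Among the 6 higher genes, the B cell genes igic1s1, an immunoglobulin light chain, and cd79b, of the B cell receptor, differed by 2.58 ± 0.57 and 2.18 ± 0.58. The adaptor blnk, also among them, differed by 2.09 ± 0.34. cd79b had 1.48 and 4.45 at 48 h and 7.12 and 17.3 at 24 h, against 0.606, 0.223 and 0.655 in brain. The brain libraries held 9 reads of cd79b in total. With 48 h alone set against brain it was not called (adjusted p = 0.0578, limma, Benjamini-Hochberg). The homing receptor ccr7 and the T cell factor gata3 were lower, by -4.06 ± 0.33 and -3.42 ± 0.52.

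Of 19 dendritic-like genes 8 were higher and 4 lower, with a median of 1.07 (6 and 4 without sample 3), led after irf8 by epdl1 at 5.39 ± 0.32 and the integrin itgae.2 at 3.97 ± 0.30, while the actin bundler fscn1a differed by -3.73 ± 0.43. Of 30 endothelial and mural genes 7 were higher and 13 lower, with a median of -1.15. The 7 and 13 are 23.3% and 43.3%, against 23.2% higher and 27.9% lower among all genes tested. pecam1, an adhesion receptor of endothelium and leukocytes, had 415 and 411 at 48 h and 348 and 296 at 24 h, against 0.861, 0.44 and 1.88 in brain, and differed by 7.53 ± 0.30. The receptor kinase tie1 differed by 4.40 ± 0.36 and the signalling regulator rgs5b by 3.34 ± 0.42. The water channel aqp1a.1 and the endothelial cadherin cdh5 were lower, by -5.03 ± 0.33 and -1.64 ± 0.25, with cdh5 at 0.223 in both 48 h libraries, that is without a read.

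Among the 804 genes that stand out, 537 were higher at 48 h than at 24 h, with a median of 0.25, and 69 were at an unadjusted p under 0.05. The 48 h mean holds sample 8, the highest activated library for 405 of the 804, and these counts were not made without it. Of all 21458 genes tested, 9622 were higher at 48 h, with a median of -0.04, and 768 were at an unadjusted p under 0.05. The 5 with the largest difference between the times were gpd1a, ccl34a.4, ace, si:ch211-165i18.2 and si:ch211-194m7.4, and none passed the adjusted test. The chemokine ccl34a.4 had 165 and 102 at 48 h and 633 and 803 at 24 h, against 0.734, 5.1 and 0.799 in brain, a 48 h minus 24 h difference of -2.45. ace, which encodes angiotensin-converting enzyme, had 848 and 262 at 48 h and 69.9 and 109 at 24 h, against 4.69, 2.28 and 5.34 in brain, a difference of 2.42. gpd1a, a glycerol phosphate dehydrogenase, had 340 and 54 at 48 h and 26.8 and 20.4 at 24 h, against 2.52, 1.63 and 0.727 in brain. For si:ch211-165i18.2 and si:ch211-194m7.4 the differences were 2.24 and 2.09.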

How the data were processed

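Libraries were made from amplified cDNA, per the labels' protocols. Build GRCz10, TopHat2 2.0.5, SAMtools 0.1.18 and edgeR are named in the submitters' processing notes; the counting tool, annotation and scaling are not given in the sources used here. The deposited table holds a signal (scaled read coverage) per gene for 21756 genes. In each column the values sit on equal steps above a shared constant (tolerance 0.05 steps), so a step was taken as 1 read and read totals were computed; floors of 3 reads cover counting error only. Log2 fold changes by the authors, deposited as another table, served only to check sample 3.

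A gene was kept if 2 or more of the 7 libraries reached a value of 1 (21458 genes). Values were fitted as log2(value + 1) with limma 3.58.1 in R 4.3.3 (lmFit, eBayes with a trend, two-sided, Benjamini-Hochberg adjustment over all genes tested); activated libraries were pooled over time, and time points were compared in a fit of 3 groups. Calls were made at an adjusted p under 0.05. Tables and plots used Python 3.11.15 (numpy 2.4.6, pandas 2.3.3, matplotlib 3.10.9). The fit was tested on simulated data. The comparison, its markers and the 36 gene lists were chosen with earlier results of these data known, and no list was tested as a set. Genes named are the markers, the 15 largest positive differences among genes that stand out, the 8 largest negative ones, in each list up to 3 higher and 2 lower called genes and those against its direction, any transcription factor, phagocytosis or replication gene or fixed cell type marker, and the 5 standing-out genes that differ most between times; exceptions are named as such, and some genes are not reported here. No gene positions or sequences are given, since the reference at hand is of a later build. Alternatives covered the pseudocount, filter, scaling, weights, limma-voom on the recovered reads, control microglia samples 1 and 5 in the fit, a stricter threshold, a block for consecutive sample numbers, separate time groups and each library left out.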

Additional observations from a re-analysis of the deposited data

Results flagged for a closer look

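Among the 200 genes of the report's results, 9 had 1 activated library far from the other 3, by Dixon's test of the gap to the nearest value at the 95% level. Chance flags about 1 in 20 groups, and the 4 libraries span both times. In 8 of the 9 genes the far library was 48 h sample 8. It was the highest for havcr1 (3337), psme2 (519), tnfb (842), psma6l (102) and pgd (729), and the lowest for ncf1 (79), cybb (184) and cdt1 (3.23). In 24 h sample 3 the chemokine cxcl12a was the highest (5.34), far below its level in the brain libraries.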

How the results depend on the processing

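The calls of activated against brain libraries moved by less than 1.5 times under every setting tried, with 3530 to 7452 genes higher and 4173 to 7831 lower. Counts that moved further were the genes that stand out, 446 with a pseudocount of 5 and 1414 with limma-voom on the recovered reads (804 in the report), and the genes higher at 48 h, 2695 with every library scaled to the same sum (4296 in the report). Leaving out a library in turn gave 4075 to 5436 genes higher, 5088 to 6020 lower and 754 to 857 standing out. At 24 h it gave 2197 to 4555 higher and 2978 to 5008 lower, with 2275 and 2978 without 24 h sample 3 and 2197 and 2992 without 24 h sample 7, and at 48 h 3277 to 4385 higher and 3800 to 5363 lower. For 48 h against 24 h the count was 0 in the fits that gave it except that without sample 3, where it was 1. The groups share no replicate numbers, so the labels pair no samples; a replicate block for consecutive sample numbers gave 4833 higher and 5732 lower. Of 200 genes of the report's results, 193 were called, and 183 of these under every setting. glula and mmp13a, not called, were reversed at -0.22 and 0.39 with array weights. Without brain sample 10, 4 interferon genes were lower and 1 neuron gene higher, and the count of higher cholesterol genes was 1 without 48 h sample 4, 24 h sample 7 or brain sample 6. Depth limits genes near 3 reads.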

Other observations

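Many zebrafish genes exist as pairs of copies whose symbols differ in a final a or b, and in some pairs the copies were called in opposite directions, a pattern looked for after the values were seen. Of 1849 such pairs with both genes tested, both were called in 788. Of these, 124 pairs were higher in activated microglia for both genes, 505 were lower for both and 159 were called in opposite directions. In 692 pairs a single gene was called. Among all genes tested 23.2% were higher and 27.9% lower, so unrelated genes would also part in some pairs. Whether copies parted more or less often than unrelated genes was not tested. Symbols alone define these pairs, so some are not true copies, and short reads can be shared between close copies.

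The pairs with the widest gap included tmem136b at 3.67 beside tmem136a at -6.15, ebf3b at 5.02 beside ebf3a at -4.73 and samsn1a at 5.96 beside samsn1b at -2.90 (activated minus brain, log2 scale). The actin regulator coro1a, a leukocyte gene, differed by 4.59 and coro1b by -3.54. In the proton pump, atp6ap1b differed by 3.25 and atp6ap1a by -4.41, and atp6v0ca by 2.49 and atp6v0cb by -5.16.

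Of the 804 genes that stand out, 187 were in any of the 36 lists. A descriptive symbol was missing for 22.1% of the 804 genes, against 25% of all genes tested.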
